A study of Mus musculus with 8 samples.

Results

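CpG island cytosines with a methylation level of 20% or more and under 40% in cultured mouse germline stem (GS) cells were examined. The level of a cytosine in a line was its methylated reads as a percent of its methylated plus unmethylated reads, and the members were chosen by the unweighted mean of these levels over the 8 lines of the study. The 2 strands of a CpG were separate entries, and 7512 of the 156142 island cytosines were members, of 203645 cytosines in the promoter table. They were 5115 CpGs, 2397 of them with both strands in the range, and lay in 2639 of 5340 islands and before the starts of 2707 of the 5796 genes with an island cytosine. GS cells are spermatogonia grown with stem cell activity, here derived from CD9-selected cells of mature testes of B6 mice labelled WT. Lines 29, 37, 44 and 45 came from mice born after natural mating (control-F1, treatment label "no"), and lines 11, 17, 20 and 21 from mice born after intracytoplasmic sperm injection (ICSI-F1, treatment label "ICSI"). Each line gave 1 reduced representation bisulfite sequencing (RRBS) library, and the labels give neither the age nor the parentage of the donor mice, so the spread between lines is the error against which groups were compared. The labels were filled in with 2 layouts, 1 for lines 29, 37, 11 and 17 (label set 1) and 1 for lines 44, 45, 20 and 21 (label set 2), which cross the groups and need not be a sequencing batch.

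CpG islands are stretches rich in CpG that mark many promoters and are usually free of methylation. In RRBS the enzyme MspI cuts DNA within CCGG before bisulfite converts unmethylated cytosines, so each fragment starts and ends inside an MspI site. The CpG cytosine of that site is the first genomic base of the fragment that begins there. On the fragment that ends there, the same base is copied by the polymerase that fills in the cut end, and a copied base carries the methylation of the nucleotide supplied, not that of the cells. The nucleotides supplied, and how much of the copied ends was left in the reads, are not given in the sources used here. Below, the fragment that ends at an MspI cytosine, read 5′ to 3′ on that cytosine's own strand, is the upstream fragment, and the one that begins there is the downstream fragment.

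Stretches from mm10 show the settings in which members were found. In the first set, every CCGG is in capitals. The *Man1a2* stretch (chr3:100685947-100686019, plus strand, outside genes) holds the member that varied least between lines. The *Pwwp2b* stretch (chr7:139248125-139248413, plus strand, outside genes) has 6 consecutive MspI sites with both strands in the range. The *Efs* stretch (chr14:54926186-54926454, plus strand, outside genes) has a member on 1 strand only, between fragments of unlike length.
Man1a2: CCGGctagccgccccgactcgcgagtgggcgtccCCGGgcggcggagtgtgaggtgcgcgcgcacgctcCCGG
Pwwp2b: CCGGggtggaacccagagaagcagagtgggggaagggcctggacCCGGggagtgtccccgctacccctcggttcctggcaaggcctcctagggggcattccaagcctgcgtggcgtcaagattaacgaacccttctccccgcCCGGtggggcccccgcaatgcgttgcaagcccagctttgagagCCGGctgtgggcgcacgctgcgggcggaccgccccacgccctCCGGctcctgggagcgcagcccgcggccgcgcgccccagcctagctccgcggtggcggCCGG
Efs: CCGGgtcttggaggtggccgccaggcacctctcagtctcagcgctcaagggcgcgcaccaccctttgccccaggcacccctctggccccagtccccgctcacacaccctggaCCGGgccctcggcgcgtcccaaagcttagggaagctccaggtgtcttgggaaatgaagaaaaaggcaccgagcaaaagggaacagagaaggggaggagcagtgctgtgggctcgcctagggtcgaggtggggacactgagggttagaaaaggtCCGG
The *Vars* stretch (chr17:35000356-35000474, plus strand, outside genes) is the contrast, since CpGs there that lie outside CCGG were members. The CG of each member CpG is in capitals.
Vars: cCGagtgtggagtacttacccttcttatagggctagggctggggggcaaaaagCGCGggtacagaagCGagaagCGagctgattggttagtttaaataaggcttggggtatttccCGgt

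In the *Man1a2* stretch, before a gene for a mannosidase that trims N-linked sugars, the member at base 36 had 22.4%, 22.8%, 20.8% and 22.4% in control-F1 lines 29, 37, 44 and 45 and 19.8%, 20.8%, 18.4% and 20.6% in ICSI-F1 lines 11, 17, 20 and 21. The lines were nearly level, but this member was picked for the smallest SD. The other strand at base 37 had a mean of 21.5%, with lines from 13.8% to 38.6%. The 22 cytosines of the stretch outside CCGG had a mean of 1.76%. In the *Pwwp2b* stretch, before a gene for a PWWP-domain chromatin protein, the 12 MspI cytosines had means of 22% to 34.4%, and the 46 other cytosines had means of 0.0% to 3.60%. In the *Efs* stretch, before a gene for a signalling adaptor, the member at base 114 had 22.3%, while the opposite cytosine at base 115 had 6.84% and the 16 cytosines outside CCGG had 2.45%. The fragments on either side of that site were 112 and 153 bp long. In the *Vars* stretch, before the gene for valyl-tRNA synthetase, the 10 cytosines outside CCGG had means of 21.8% to 41.3%.

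With the scaling of coverage undone, a member had a median of 85 reads in a line (range 10 to 300). Reads carried no molecular identifiers, so this limits counting error only. The labelled cell type could not be checked from these levels, since island cytosines outside MspI sites were low in all gene lists alike. Summed reads ranged from 9121937 in line 37 to 16781748 in line 45, and the 4 lines of label set 1 were the shallower ones.

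Nearly every member was a cytosine of an MspI site. This was so for 7488 of the 7512 members (99.7%), whereas 14.0% of all island cytosines lay in CCGG. Read the other way, 34.2% of the 21899 island cytosines at MspI sites were members, against 0.0179% of the 134243 others. The share at MspI sites was 0.327% among island cytosines under 1%, 39.6% from 5% to 10%, 91.5% from 10% to 20% and at least 97.1% in every band above 20%. Only 78 island cytosines outside CCGG reached 20%. Members were otherwise placed like the island cytosines around them. They lay a median of 132 bp from the gene start (127 bp for all island cytosines), and 89.8% were outside genes, 6.43% in exons and 3.75% in introns, against 90.4%, 5.78% and 3.8% of island cytosines. Plus and minus strands held 3762 and 3750 members.

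**Figure D1:**
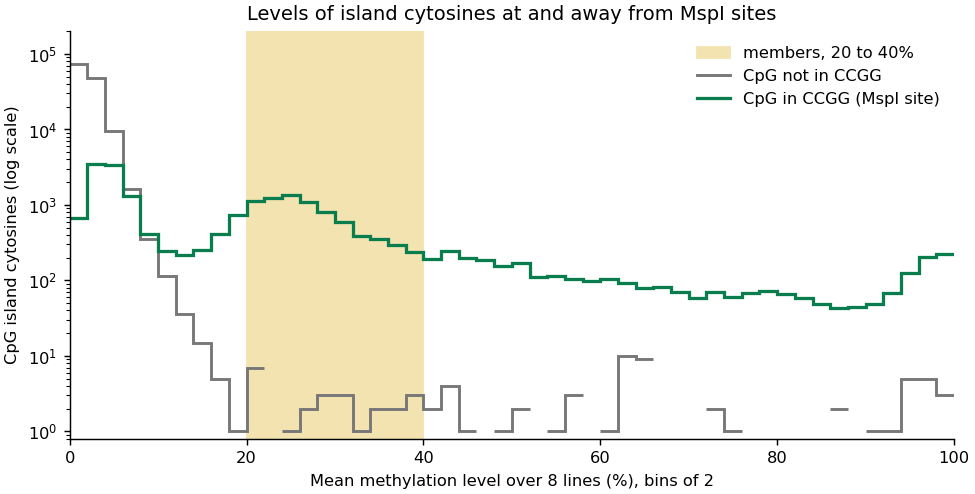
Number of CpG island cytosines (log scale) by mean methylation level over 8 lines in bins of 2 percentage points, for cytosines inside and outside CCGG, with the range of the members shaded. In the shaded range 7488 cytosines lay in CCGG and 24 did not.

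Within the MspI cytosines, the level went with the lengths of the fragments on either side, read from the reference sequence. Where the upstream fragment was 23 to under 150 bp and the downstream fragment 21 to under 150 bp, 6938 of 10369 island MspI cytosines were members (66.9%), and these made up 92.4% of all members. The median level of that class was 24.4%, with line medians from 22.2% to 24.8%. Of the remaining cytosines of the class 2634 were under 20% and 797 were at 40% or more. Where the upstream fragment was under 23 bp with the same downstream range, the median was 3.85% and 100 of 3488 were members. Where the upstream fragment was 150 bp or longer it was 4.38%, and 3 of 4149 were members. In all, 114 of 8557 cytosines with an upstream fragment outside 23 to under 150 bp were members (1.33%), and 105 of these had an upstream fragment of 21 or 22 bp. These bounds were set after the profile had been seen, so the counts describe it and do not test it.

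The profile by single base pairs had steps. With a downstream fragment of 30 to 140 bp, the median level was 7.59% at an upstream length of 22 bp and 19.9% at 23 bp. It was 22% 1 bp short of 150 bp and 6.35% at 150 bp. Between these lengths most medians lay within the members' range, close to its lower end. With an upstream fragment of 30 to 140 bp, the median was 97.1% at a downstream length of 20 bp and 44.2% at 21 bp, and came down to 25.6% at 30 bp. It was 28.0% at 147 bp and 42.8% at 148 bp, and from there on no length with at least 10 cytosines had a median under 34%. Over all upstream lengths of 23 to under 150 bp, the median was 50.1% with a downstream fragment of 150 to under 300 bp, where 434 of 2061 were members, and 88.7% at 300 bp or more, where none of 638 was. With a downstream fragment under 21 bp the median was 98.1%, and 2 of 274 were members.

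**Figure D2:**
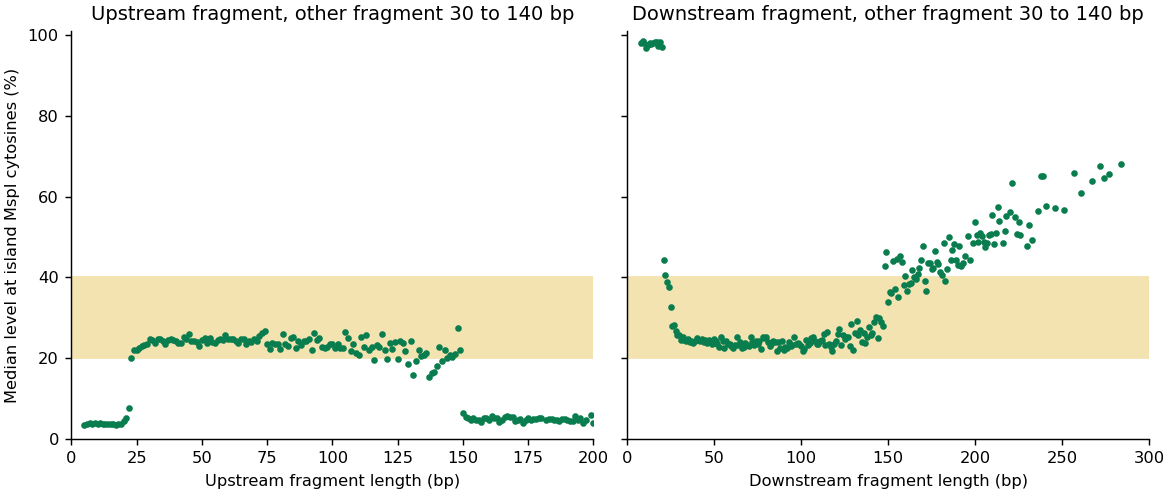
Median methylation level of island MspI cytosines (%) by the length of the upstream fragment (left) and of the downstream fragment (right) in base pairs, for lengths with at least 10 cytosines and the other fragment 30 to 140 bp long. The left panel steps up at 23 bp and down at 150 bp, and the right panel starts at 96.9% or more up to 20 bp, lies near 25% from 30 bp and is at 34% or more from 148 bp on.

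The level also went with the relative coverage of the 2 fragments. The reads at the MspI cytosine that begins the upstream fragment, divided by the reads at the cytosine itself, had a median of 0.92 (quartiles 0.784 and 1.08). This was over the 5637 members with both fragments in range for which both cytosines were in the table. The median level was 12.6% at a ratio of 0.2 to 0.4, 22% at 0.6 to 0.8, 25% at 0.8 to 1, 28% at 1 to 1.2, 34.5% at 1.2 to 1.6, 46.5% at 1.6 to 2.5 and 89.6% above 2.5. The share that were members was highest between 1 and 1.2 (96.8% of 1353). Spearman's rho between ratio and level was 0.784 over 7547 MspI cytosines, which is a description, since the denominator of the ratio and the level come from the same reads. Among cytosines with both fragments in range but a level under 10%, the start of the upstream fragment was in the table for 15.0% of 962. It was there for 81.3% of the 6938 members with both fragments in range.

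Strands were alike at most members. The other strand of the CpG was in the table for 6903 members. The 2 strands lay within 10 points of each other at 4899 of them (71.0%), with a median difference of 5.40 points, and at 4794 the other strand was itself a member. This share was 96.6% among island cytosines under 20%, 3.36% from 40% to 80% and 1.40% at 80% or more. The other strand was under 10% at 784 members (11.4%), from 10% to 20% at 973, and at 40% or more at 351. A member whose other strand was under 10% and whose neighbours on both strands were under 10% was found 750 times, or in 10.9% of the members whose other strand was measured. These shares are of cytosines, so a CpG with both strands in the range counts as 2 members. Of the 5115 member CpGs, 2397 were of this kind, and shares per CpG were not computed.

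Members with a low opposite strand fell into 2 sets by fragment length. The downstream fragment of a cytosine is the upstream fragment of the cytosine opposite. At 387 of the 783 MspI members whose other strand was under 10% (49.4%), it was under 23 bp or at least 150 bp, against 8 of 4880 with both strands within 10 points (0.164%). With a downstream fragment of 150 to under 200 bp, 372 members had a median of 34.6% and the other strand a median of 5.21%, and with 30 to under 60 bp, 2957 members had 25.5% and the other strand 24.8%. At the other 396 (50.6%), where that fragment was in range, the start of the fragment ending at the opposite cytosine was in the table for 19.2%, against 82.3% of 4872 members with both strands within 10 points and a downstream fragment in the same range.

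The members with an opposite strand under 10% that varied least between lines mostly had both fragments in range, with *Efs* the exception. The minus-strand member of *Slc22a5*, the carnitine transporter (chromosome 11, position 53891814), had fragments of 83 and 71 bp upstream and downstream and 26.9%, 25.3%, 23.1% and 20.6% in control-F1 lines 29, 37, 44 and 45 and 22.7%, 25.8%, 28.9% and 28.6% in ICSI-F1 lines 11, 17, 20 and 21, and its other strand had 3.23%. The plus-strand member of *Eif3d*, a translation initiation factor subunit (chromosome 15, position 77970889), with fragments of 95 and 113 bp, had a mean of 31.4% (28.7% to 36.1%) and 5.44% on the other strand. The member of *Zfp423*, a zinc finger transcription factor (chromosome 8, position 87960520), with fragments of 61 and 68 bp, had 25.7% (22.2% to 29.4%) and 9.85%. That of *Gm26709* (chromosome 12, position 72945485), with fragments of 73 bp on both sides, had 26.7% (20.8% to 31.0%) and 4.18%. In each of these, and in *Efs*, the neighbouring CpGs within 50 bp were under 5%, and both groups of lines overlapped.

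Neighbouring CpGs mostly did not have the members' level. Of the 7487 members with another CpG of the table within 50 bp, 7177 had neighbours with a mean under 10% (95.9%), 256 between 10% and 20%, and 54 at 20% or more (0.721%). The median member had 16 neighbouring cytosines with a mean of 2.85%. Neighbours outside MspI sites had a median of 2.00% over 7466 members (5th to 95th percentile 1.11% to 3.23%), while neighbours at another MspI site had a median of 22.6% over 4550 members. Of the 54, 31 were at MspI sites, and 13 had no neighbour outside an MspI site at all.

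Promoters with many members showed this at scale. Runs of members no more than 100 bp apart numbered 3405, of which 2301 held 1 CpG and 395 held 3 or more. The run with the most CpGs, 9 with 13 member cytosines over 385 bp before *Ppp1r12a* (a targeting subunit of myosin phosphatase), had 25.8%, 28.8%, 25.5% and 25.9% in control-F1 lines 29, 37, 44 and 45 and 24.1%, 26.5%, 24.9% and 25.0% in ICSI-F1 lines 11, 17, 20 and 21. Line 37 was the highest, and the other 7 lay at 24.1% to 26.5%. The 66 cytosines outside MspI sites in the same stretch had a mean of 1.92% (line means 0.696% to 3.04%). The next run, before the ETS factor gene *Elf2*, had 15 members with a mean of 24.9% and 74 other cytosines at 1.61%. The runs before *Mex3c* (an RNA-binding ubiquitin ligase), *Akirin2* (a nuclear regulator of transcription), *Ptp4a1* (a phosphatase), *Epb41l4b*, *1110032F04Rik* and *Pwwp2b* had member means of 24.6% to 31.2% and other cytosines at 1.66% to 2.55%. *Ccne2*, which encodes cyclin E2 and was singled out after its count was seen, had 22 members among 234 island cytosines, at a mean of 26%, and 202 cytosines outside MspI sites at 1.88%.

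**Figure D3:**
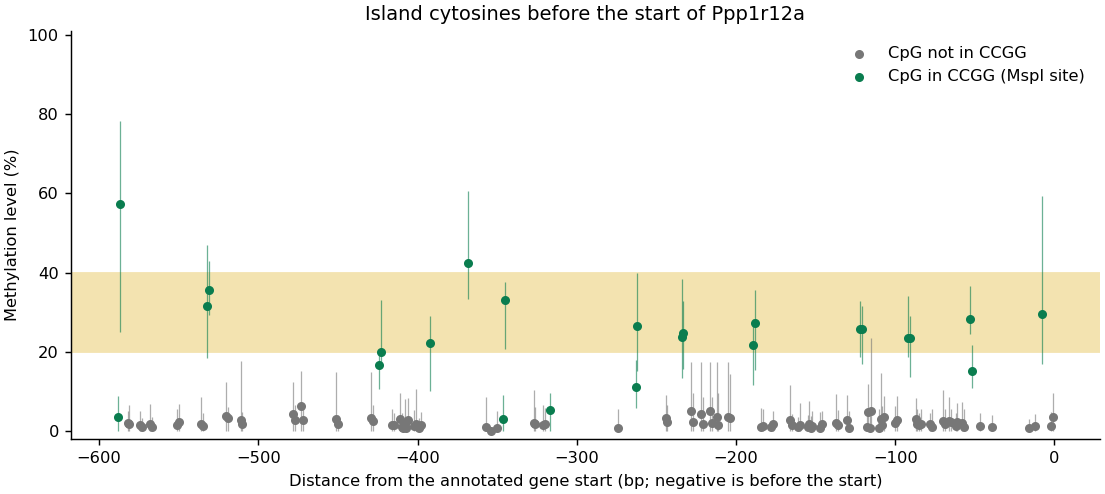
Methylation level (%) of island cytosines by distance from the annotated start of *Ppp1r12a* in base pairs, as points for the mean of 8 lines and vertical lines from the lowest to the highest line, for cytosines inside and outside CCGG, with the range of the members shaded. The 15 members of this gene, all in CCGG, stand among 102 cytosines outside CCGG with a mean of 1.98%.

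The level of a member was similar but not identical in the 8 lines. The median SD between lines was 7.19 percentage points (1.5 to 36.1), against 4.84 from counting reads alone, and the median range was 21.2 points. All 8 lines lay within 20 points at 3280 members (43.7%) and between 10% and 60% at 6772 (90.2%). A line was under 10% at 582 members and at 60% or more at 208. A chi-square test of reads over the 8 lines, adjusted by the Benjamini-Hochberg method over 196818 sites of the table that varied, passed at 3602 members (47.9%), where 58.2% of all tested sites passed. The test compares libraries beyond counting error, not conditions. Most tested sites had a lower level than members, and the shares were not matched for level. They therefore do not rank members against other sites. Line 37, the shallowest, was the lowest line at 24.5% of members and the highest at 16%. Besides *Man1a2*, the smallest SDs were at *Oxr1*, an oxidation resistance gene (22.4% ± 1.61, SD over 8 lines), and *Mcrs1*, a chromatin and spindle factor gene (22.1% ± 1.84). The chi-square per degree of freedom was 0.144 at *Man1a2*, 0.18 at *Oxr1* and 0.197 at *Mcrs1*. These members were picked for their SDs, which lay below what counting alone gives on average.

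Part of the spread ran with the label sets. The mean over all members was 26%, 25.6%, 25.2% and 27.2% in lines 29, 37, 11 and 17 and 28.6%, 28.3%, 28.2% and 27.6% in lines 44, 45, 20 and 21, so that no line of set 1 reached set 2. Set 2 was higher by 2.16 points, 60.7% of members were higher in it, and the sets did not overlap at 8.39% of members. These shares were not computed over all cytosines, so whether they are particular to members was not tested. Island cytosines outside MspI sites were higher by 1.83 points in set 2 (line means 0.787% to 3.56%). The set difference was uneven among members. It was 0.99 points at the 6195 members with an upstream fragment of 23 to under 150 bp and a downstream fragment of 30 to under 150 bp, and 16.6 points at the 434 with a downstream fragment of 150 to under 300 bp. These 434 had 30.0%, 18.7%, 26.8% and 26.4% in lines 29, 37, 11 and 17 and 41.5%, 42.3%, 39.1% and 45.3% in lines 44, 45, 20 and 21. Read depth also differed between the sets, and its part in this was not tested.

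**Figure D4:**
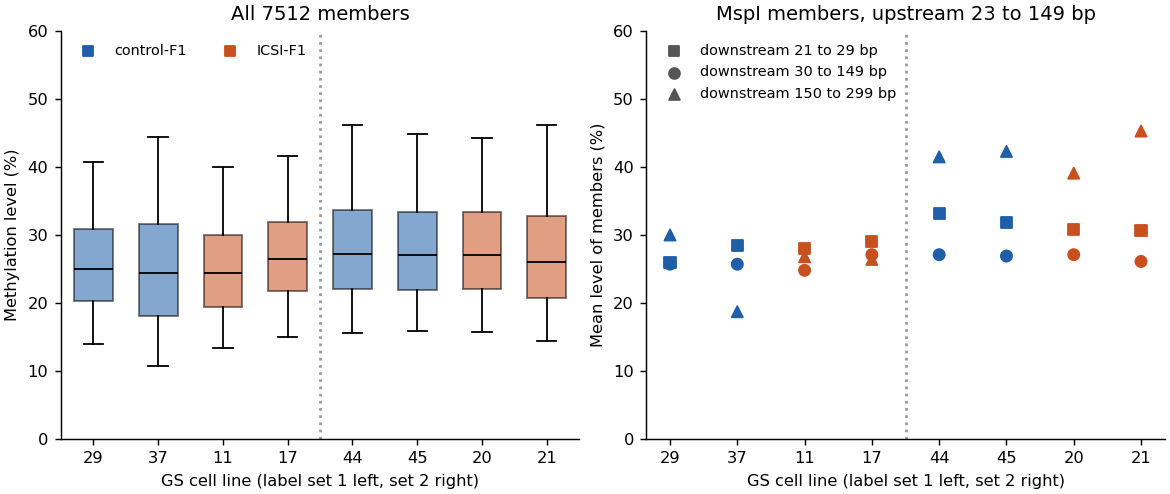
Methylation level (%) of members by GS cell line, with label set 1 left and label set 2 right of the dotted line and colours for the groups. Left, boxes from the lower to the upper quartile with the median and whiskers at the 5th and 95th percentiles over all members, and right, the mean over MspI members with an upstream fragment of 23 to under 150 bp in 3 classes of downstream length. The 434 members with a downstream fragment of 150 to under 300 bp lay at 18.7% to 30.0% in set 1 and 39.1% to 45.3% in set 2.

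The mean level over all members differed between the groups by less than the spread between lines. Control-F1 lines averaged 27.1% ± 1.55 and ICSI-F1 lines 27.05% ± 1.27 (SD, n = 4), a difference of −0.0707 points (0.417 within label set 1 and −0.559 within label set 2). ICSI-F1 lines were higher at 50.3% of members, where 43.4% of all promoter cytosines were, and group means lay within 5 points at 67.7% of members. The study took differences over 20 points and left out sites where a sample went the other way, which was read here as group means more than 20 points apart with every ICSI-F1 line on the same side of the control-F1 mean. Over all promoter cytosines it called more sites than the study reported, so its counts are not the study's. By this reading, 5 members were higher in ICSI-F1 lines (0.0666%, where 0.274% of all promoter cytosines and 0.0448% of island cytosines were). The rule called 8 members lower (0.106%, where 0.0506% and 0.00961% were). Of the 156142 island cytosines, 31197 had a mean under 1%, 43775 from 1% to 2% and 60417 from 2% to 5%. Group means of these cytosines cannot lie more than 20 points apart, whereas those of members can. The shares by the rule, and those below for groups without overlap, were not matched for level. They therefore do not rank members against other cytosines. Groups did not overlap at 77 members with ICSI-F1 higher (1.03%, where 0.427% of all cytosines were so) and 86 with ICSI-F1 lower (1.14%, where 0.679% were so). Single lines moved these counts. With membership and rule taken from the other 7 lines, 11 members were higher without line 29, 11 without line 17, 8 without line 44, 9 without line 45, 12 without line 21, and 3 without line 37 or line 20. Lower ones numbered 18 without line 29, 14 without line 21 and 8 to 11 otherwise. The shares over all cytosines were not computed without each line, so whether these moves are particular to members was not tested.

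A logistic model with dispersion between lines moderated by limma gave 0 members with a Benjamini-Hochberg adjusted p under 0.05 (0 of 196818 sites, so 0.0% of those tested, and a lowest adjusted p of 0.35 among members). At an unadjusted p under 0.05 it gave 202 members, 86 higher and 116 lower in ICSI-F1 lines (1.14% and 1.54% of members, where 2.60% and 4.47% of all tested sites were). The same model with the dispersion of each site alone gave 0 members and 226 unadjusted (3.01%, where 7.75% of tested sites were), and limma on log2 ratios gave 0 and 7 (0.0932%, where 3.49% were). With label set as a covariate it was 0 and 384 (5.11%, where 15.4% were). In simulated data for this comparison on 193599 sites, the moderated model recovered 38% of 50 sites raised by 20 points and 90% of 50 raised by 30 points. Of the unchanged sites, 7.81% had an unadjusted p under 0.05 and 4 had an adjusted p under 0.05. The simulation used 1 fixed dispersion, and raised sites had at least 30 scaled reads in every line. Recovery at members with fewer reads or more spread was not tested.

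All 8 members lower in ICSI-F1 lines lay in the *Vars* island, and the 5 higher ones were in *Zbtb33*, *Gm32093*, *Pisd*, *Gm13652* and *Mkx*. *Mkx* and *Gm13652* were named after their values were seen. At *Zbtb33*, which encodes the methyl-CpG-binding factor Kaiso, the minus-strand MspI cytosine at position 38189752 of chromosome X had 29.5%, 29.2%, 32.7% and 10.4% in control-F1 lines 29, 37, 44 and 45 and 65.4%, 55%, 40.6% and 37.8% in ICSI-F1 lines 11, 17, 20 and 21. The groups did not overlap, the difference was 24.2 points (30.8 within set 1 and 17.6 within set 2), a line had 13 to 60 reads, and the adjusted p of the moderated model was 0.702. At *Pisd*, which encodes phosphatidylserine decarboxylase, the plus-strand MspI cytosine at position 32785773 of chromosome 5, in an intron, had 33.3%, 8.14%, 33.3% and 34.9% in the control-F1 lines and 30.4%, 38%, 66.1% and 60.0% in the ICSI-F1 lines, in the same order. Line 37 was the low control-F1 line, the groups overlapped, and the downstream fragment was 214 bp. *Gm13652* had 28.1% ± 19.5 and 48.5% ± 9.40 and *Mkx* 25.2% ± 18.7 and 45.3% ± 17.7 in control-F1 and ICSI-F1 lines (SD, n = 4), with overlapping groups.

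The level was shared by neighbours outside MspI sites at 24 members before 5 genes, *Vars*, *Gm32093*, *Gm37927*, *Rab10os* and *Gm28055* (10, 5, 5, 1 and 3 of them, 5 of these at MspI sites). These islands held 23 of the 24 members that were not at an MspI site, and the remaining one was before *Nup93*, a nuclear pore gene, with 21.9% ± 11.5 (SD over 8 lines) and 2.44% on its other strand. Among the 24 members outside MspI sites, strand means over the 8 lines were within 10 points at 19 of the 20 with both strands measured. Some of these are the 2 strands of 1 CpG, and agreement within single lines was not counted. The *Gm32093* strands at positions 118322282 and 118322283 had 18.7% and 57.1% in line 29. They had 71.6% and 42.6% in line 20, but 21.3% and 21.7% in line 17. Lines differed more at members outside MspI sites than at MspI members. The median SD was 20.6 points against 7.18. The median chi-square per degree of freedom, a ratio of variances and not of SDs, was 11.3 against 2.16.

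The *Vars* island had 10 members with shared neighbours in the stretch printed above, 1 of them at an MspI site, with a mean of 14.6%, 35.5%, 61.7% and 61.3% in control-F1 lines 29, 37, 44 and 45 and 24.2%, 7.75%, 10.9% and 26.2% in ICSI-F1 lines 11, 17, 20 and 21. Lines 44 and 45 were the high ones, and line 29 lay within the range of the ICSI-F1 lines. The group means were 43.3% ± 22.7 and 17.3% ± 9.29 (SD, n = 4). At the cytosine with the greatest decrease, position 35000423 on the plus strand, control-F1 lines had 49.8% ± 34.3 and ICSI-F1 lines 14.1% ± 5.54, a difference of −35.6 points that was −7.26 in label set 1 and −64.0 in label set 2 (adjusted p of the moderated model 0.662). The cytosine at position 35000430 differed by −30.4 points, and its adjusted p was 0.35. On the 155863 sites with at least 30 scaled reads in every line, the same model gave adjusted p-values of 0.0367 and 0.0228 for these 2 cytosines, the only members among 80 sites that passed. The whole island had 14.4% at its 52 cytosines outside MspI sites.

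*Gm32093* had 5 members beside neighbours at 20% or more, with 46.9%, 8.58%, 18.1% and 30.2% in lines 29, 37, 44 and 45 and 22.8%, 26.7%, 65.7% and 39.7% in lines 11, 17, 20 and 21. *Gm28055* had 3, with 34.9%, 10.6%, 9.13% and 5.54% in the control-F1 lines and 34.5%, 17%, 56.2% and 4.11% in the ICSI-F1 lines, in the same order. Lines 29 and 20 were the highest of their groups in both, and the groups overlapped. *Rab10os* had 5, only 1 of them with neighbours outside MspI sites at 20% or more (21.7%), and a mean of 24.4% ± 5.48 over control-F1 lines and 30.4% ± 8.67 over ICSI-F1 lines (SD, n = 4). *Gm37927*, on the Y chromosome, had 37% ± 5.78 and 26.4% ± 5.12 over its 5 members, but single cytosines ranged widely. The one at position 20603438 had 12.5%, 94.1%, 57.1% and 11.8% in lines 29, 37, 44 and 45 and 22.2%, 8.11%, 84.5% and 6.45% in lines 11, 17, 20 and 21. Its coverage was 12 to 50 reads. Much of the Y chromosome is repeated, and whether these reads belonged to 1 copy was not tested.

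**Figure D5:**
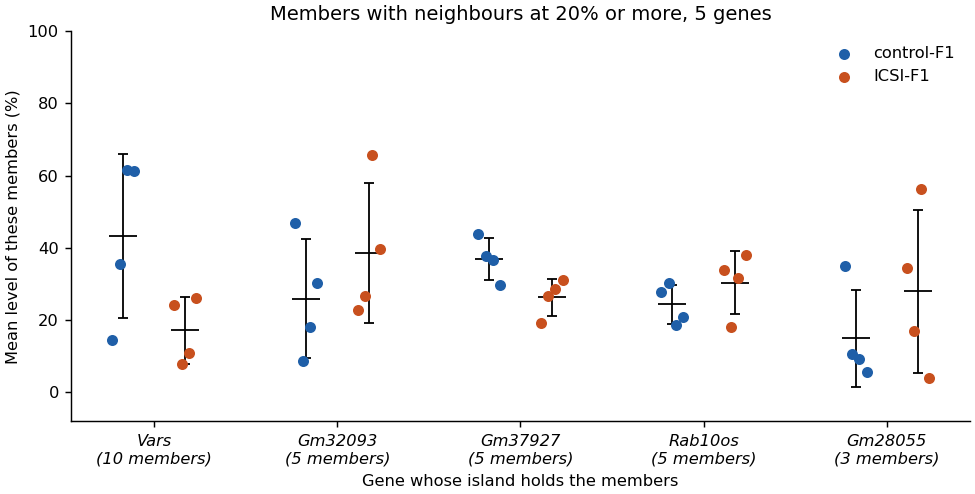
Mean methylation level (%) of the members whose neighbours were also at 20% or more, before the 5 genes where CpGs outside CCGG shared the level, with 1 point per GS cell line, the group mean as a bar and the SD over 4 lines as error bars. Lines 44 and 45 stand at 61.7% and 61.3% before *Vars*, and the groups overlap in each of the 5 genes.

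At the other 19 genes with a member beside neighbours at 20% or more, every member was at an MspI site. *Kit*, the receptor of stem cell factor and a marker of differentiating spermatogonia, had 24.5% on both strands of such a CpG on average, with 4 neighbours outside MspI sites at 1.86%. *Ccno*, *Pabpc6*, *Slc2a8* and others had no neighbour outside an MspI site within 50 bp, and their islands, where they held cytosines outside MspI sites, had 0.896% to 3.79% there.

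Members occurred in promoters of all 6 lists of genes examined, and all of them lay at MspI sites. The lists were homeobox genes (45 with an island measured), imprinted genes (10), DNA methylation machinery (10), meiosis genes (9), housekeeping genes (7) and germ cell genes (5). They had 47, 18, 6, 4, 4 and 6 members in that order, or 3.43%, 4.49%, 3.47%, 4.35%, 3.03% and 7.79% of their island cytosines, where 4.81% of all island cytosines were members. The member means were 24.6% to 28.4% and those of the cytosines outside MspI sites 1.89% to 2.73%. None of these members passed the 20-point rule or the moderated model. The median difference between ICSI-F1 and control-F1 lines was −4.55 points for the 6 members of the DNA methylation machinery. It was −0.231 to 2.20 points for the other lists, 0.0298 over all members and −0.205 over all promoter cytosines. Those 6 lay before only 3 genes, with 3 at *Mbd2*. None was higher in ICSI-F1 lines, where 50.3% of all members were.

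Among the germ cell genes, *Zbtb16*, a transcription factor needed for spermatogonial self-renewal, had 4 members with 24.7%, 28.2%, 26% and 21.8% in control-F1 lines 29, 37, 44 and 45 and 22.4%, 25.7%, 23.5% and 26.5% in ICSI-F1 lines 11, 17, 20 and 21. The groups overlapped, and 34 cytosines outside MspI sites had 2.36%. Of the imprinted genes, *Kcnk9*, a potassium channel gene, had 8 members with a mean of 23.9% (lines 22.4% to 26.1%) beside 135 cytosines at 2.01%. *Dio3*, a thyroid hormone deiodinase gene, had 3 with 21.7% beside 63 at 1.5%, and *Ascl2*, a transcription factor gene of the placenta, had 4 with 26.6% beside 21 at 2.42%. None of the 3 had a member outside MspI sites. *Mbd2*, whose protein binds methylated CpG, had 3 members with 24.2% beside 12 cytosines at 2.49%. The X-linked purine salvage gene *Hprt* had 2 with 27.0% beside 14 at 2.67%.

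Homeobox genes with 2 or more member CpGs were *Hoxa11*, *Hoxd1*, *Six2*, *Nkx6-2*, *Irx4*, *Meis1*, *Isl1* and *Tlx3*, developmental transcription factors. Their members had means of 24% (*Six2*) to 31.0% (*Tlx3*), and their cytosines outside MspI sites had 2.17% to 3.5%. *Hoxa11* had 24.3%, 18.2%, 25.7% and 22.5% in control-F1 lines 29, 37, 44 and 45 and 22.9%, 35.6%, 25.3% and 26.3% in ICSI-F1 lines 11, 17, 20 and 21, and line 17 stood above the other ICSI-F1 lines. The highest gene mean, that of *Tlx3*, came from 29.9% ± 5.02 over control-F1 lines and 32% ± 6.38 over ICSI-F1 lines (SD, n = 4).

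At the lower threshold, the members nearest inside were before *Snx21*, a sorting nexin gene (20.0044%, lines 4.08% to 28.6%), and *Fbn2*, a fibrillin gene (20.0052%, 12.3% to 34.5%). The cytosines nearest outside were before *Kif5c*, a kinesin gene (19.9992%, 6.98% to 33.3%), and *Ascc3*, a helicase gene (19.9984%, 9.42% to 31.8%). At the upper threshold, *Dnmbp* (39.9979%) and *Sipa1l3* (39.9923%) lay inside and *Hcn4*, a pacemaker channel gene (40.0108%), and *Gm50341* (40.0125%) outside. All 8 were at MspI sites.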

How the data were processed

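The deposited promoter table, made by the authors, was used. Per the labels and methods, DNA from each GS cell line was cut with MspI, libraries were made with a Zymo-Seq RRBS kit and read as paired reads of 150 bases, reads were trimmed with Trim Galore 0.5.0 in its RRBS and non-directional modes and aligned to mm10 with Bismark 0.20.0, and methylKit (1.16.0 in the labels) counted reads per cytosine, dropped those under 10 reads or of extreme coverage, scaled coverage between lines and kept cytosines found in all 8 lines. The values as deposited by the authors are thus scores, whole numbers normalized for coverage with methylKit before deposit, and not raw counts. The logistic model of group differences nevertheless took these scaled values as its numbers of methylated and unmethylated reads. The scale factors (1 to 1.88) were recovered from the coverage values. They were undone for read depths, the chi-square test and an alternative of the model, which also gave 0 members. The authors' island annotation was used, exons and introns came from GENCODE M21, and the sequences from GRCm38, which is mm10.

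Levels were averaged over lines without weights. Neighbours were all cytosines within 50 bp other than those of the same CpG. Fragment lengths were distances to the nearest CCGG on either side, and their bounds (21, 23, 150 and 300 bp) were chosen after seeing the data. Group differences were tested with a quasi-binomial logistic model on all sites that varied, its dispersion moderated with limma 3.58.1 (R 4.3.3) and held at 1 or more, with Benjamini-Hochberg adjustment, and tested on simulated data. Other steps used Python 3.11.15, numpy 2.4.6 and scipy 1.17.1. No p is given for a value over members. p-values measure the spread between lines, since nothing says how the lines relate to litters. Members and lists were chosen with earlier results of these data known. Named were the 8 runs with the most CpGs, the 5 members on 1 strand with the least spread, the 3 with the largest and the smallest SD, increase and decrease, the 2 on each side of each threshold, and listed genes with 2 or more member CpGs; the 24 members outside MspI sites, genes with shared neighbours and the gene with the most members were added after their values were seen. No columns of other samples were used.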

Additional observations from a re-analysis of the deposited data

Results flagged for a closer look

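In 12 of the 180 groups of 4 lines checked among the values above, 1 line stood apart from the other 3 by Dixon's ratio, its gap to the nearest line divided by the range of the group. Chance finds about 1 in 20 groups chosen without regard to their values. Some groups here were named for a large SD, increase or decrease, and some share cytosines. The 12 therefore cannot be set against that rate. Among control-F1 lines, line 37 stood apart at the *Ppp1r12a* run (28.8%, the others 25.5% to 25.9%, ratio 0.904), at the *Pth2* member beside high neighbours (37.5%, the others up to 20.1%, ratio 0.944), at *Snx21* position 164785726 (4.08%, the others 23.7% to 26.4%, ratio 0.879), at *Pisd* (8.14%, the others 33.3% to 34.9%, ratio 0.942) and at *Gm32093* position 118322282 (0.0%, the others 18.7% to 22%, ratio 0.851). Line 29 stood apart at the *Gm28055* members (34.9%, the others 5.54% to 10.6%, ratio 0.8294), at their cytosine at position 51747647 (35.5%, the others 5.80% to 10.1%, ratio 0.855) and at *Gm32093* position 118322283 (57.1%, the others 12.5% to 14.5%, ratio 0.956). Line 45 was low at *Zbtb33* (10.4%, the others 29.2% to 32.7%, ratio 0.843), and line 44 was high over the *Kcnk9* members (25.7%, the others 23.1% to 23.5%, ratio 0.876).

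Among ICSI-F1 lines, line 11 was low at the *Ttc7* members (19.9%, the others 25.3% to 25.5%, ratio 0.969), and line 20 was high at *Hcn4* position 58822908 (53.9%, the others 33.8% to 36.7%, ratio 0.852). Line 37, the shallowest line, accounted for 5 of the 12.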

How the results depend on the processing

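The number of members (7512) was 3732 with thresholds of 25% and 35%, which also gave 37.5% of members within 20 points over the lines (43.7% as reported). With label set 1 alone, strands were within 10 points at 61.8% (71.0% as reported), neighbours were shared at 0.549% and low at 97.1% (0.721% and 95.9%), 68.2% lay within 20 points and 12.4% varied beyond counting error (47.9%). With label set 2 alone these were 67.3% for strands, 93.6% for low neighbours, 80.8% and 23.1%, and 99.2% lay at MspI sites (99.7%). Ranges and tests over 4 lines are by construction narrower and weaker than over 8. With at least 30 scaled reads in every line, the values were 73.2% for strands, 97.0% for low neighbours, 99.8% at MspI sites, and 3 members higher and 5 lower by the 20-point rule. The moderated model, tested on fewer sites (155863), then gave 80 sites (0 as reported) and 2 members, both in *Vars*, at positions 35000423 and 35000430 (adjusted p 0.0367 and 0.0228). Strands within 5 or 20 points made up 46.6% or 86.6%. A window of 25 bp gave 98% low neighbours, and 100 bp gave 96.4% low and 0.493% shared. Neighbours that were not members gave 97.7% and 0.521%, and those outside MspI sites, an alternative chosen after seeing the data, 99.6% and 0.321%. Members whose groups did not overlap and differed by over 20 points numbered 1 higher and 0 lower, and a difference over 15 points gave 13 and 30. For these counts, and those with at least 30 scaled reads, the share over all cytosines was not computed.

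Leaving out each line in turn gave 7330 to 7615 members, 99.6% to 99.8% at MspI sites, 70.1% to 71.9% for strands, 0.629% to 0.753% shared and 95.6% to 96.0% low neighbours, 47.5% to 56.3% within 20 points, 41.1% to 44.4% varying between lines, 3 to 12 members higher and 8 to 18 lower by the 20-point rule, 0 members called by the moderated model (0 to 70 sites of the table, with 70 without line 44, 16 without line 17 and 9 without line 37), and −0.545 to 0.511 points between groups. Ranges and tests over fewer lines are by construction narrower and weaker than over 8. The cause of the other moves was not tested, and shares over all cytosines by the 20-point rule were not computed without each line. Weighting by reads turned the sign of the group difference (0.0288 against −0.0707 points), which stayed under the spread between lines. Weighting by reads, undoing the scaling and at least 20 scaled reads left the number of members within 1.5-fold and the strand, neighbour, line and MspI shares within their counting error, and the calls by group were not recomputed there except for the model with the scaling undone (0 members). No paired analysis was possible because the groups share no replicate numbers. At a median of 85 reads, counting alone gives an SD of 4.84 points, against 7.19 between lines.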
